A study of Arabidopsis thaliana with 12 samples.

Results

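In root tips of Arabidopsis thaliana, 45 genes had lower transcript levels on indole-3-butyric acid (IBA) both in the wild type Col-0 and in the triple mutant ibr1ibr3ibr10. They are genes that the platform annotation used here lists by a locus code alone, although some have names. Their mean level on IBA minus that on DMSO was -0.4 log2 units or less in each genotype. They came from 6869 genes so listed that reached a mean of at least 4 in 1 of the 4 groups. The seedlings, 3 days after germination, had been moved for 6 h to medium with DMSO, the solvent control, or with 10 µM IBA, and root tip segments of about 4 mm were then taken. All 4 groups are in the Col-0 background, the mutant groups differ from the others only by ibr1ibr3ibr10, whose allele names the labels do not give, and 1 triple mutant line stands for the loss of the pathway. Each group has 3 biological replicates, labelled as independent, with 1 ATH1 array each and the segments of at least 120 seedlings in a replicate. Segments of this kind hold many cell types, so fewer cells of a type and less RNA per cell cannot be told apart.

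IBA is a storage precursor of auxin. Peroxisomal enzymes shorten its side chain, in steps that resemble fatty acid beta-oxidation, and release indole-3-acetic acid (IAA), the active auxin, and IBR1, IBR3 and IBR10 are enzymes of that route. The triple mutant is known for roots that respond weakly to IBA but still respond to IAA. The set thus holds genes with lower levels on IBA also where that conversion is impaired.

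The 12 arrays gave log2 levels from 1.4 to 13.44, and arrays of the same group had correlations of 0.995 to 0.998 over the probe sets, a description and no test. Of 54 marker genes of root cell types listed, 3 passed the filter used here, a probe set with a single gene symbol in the platform annotation. The others were not read, whether or not the array measures them, so the tissue label could hardly be checked. The root hair genes EXPA7 and EXPA18, expansins of hair growth, averaged 8.22 and 8.32, and the cortex gene AT1G62500 averaged 3.52. Over the 2 hair genes, of 18 listed, the summed log2 level was 16.88 to 17.16 on the Col-0 DMSO arrays, 17.06 to 17.32 on Col-0 IBA, 16.27 to 16.54 on mutant DMSO and 15.51 to 15.62 on mutant IBA. The sum was thus lowest on the 3 mutant IBA arrays, but in Col-0 it joins opposite directions. On IBA EXPA7 changed by -0.14 (SE 0.07) in Col-0 and -0.26 (SE 0.07) in the mutant. For EXPA18 the changes were 0.25 (SE 0.09) and -0.6 (SE 0.09). The 45 genes, chosen for lower levels on IBA, had a mean level of 6.09 to 6.19 on mutant IBA and 5.98 to 6.1 on Col-0 IBA. Whether hair cells had a part in the changes of either genotype was not tested.

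The changes on IBA chose the 45 genes, so they are given as a description, with no test. The share of all 6869 genes that met the limit was 7.08% for Col-0 (486 genes), 2.74% for the mutant (188 genes) and 0.67% for both (46 genes, of which AT5G66815 was set aside). The change of the 45 genes ranged from -3.25 to -0.41 in Col-0, with a median of -0.59, and from -1.37 to -0.40 in the mutant, with a median of -0.53. Over all 6869 genes the medians were -0.05 and -0.04. Changes of -1 or less were seen in Col-0 for 9 of the 45, in ibr1ibr3ibr10 for 3 and in both genotypes for 1, AT5G04120. The limit is not a gap in the data: for 26 of the 45 the smaller of both changes lay within 0.1 of it.

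**Figure D1:**
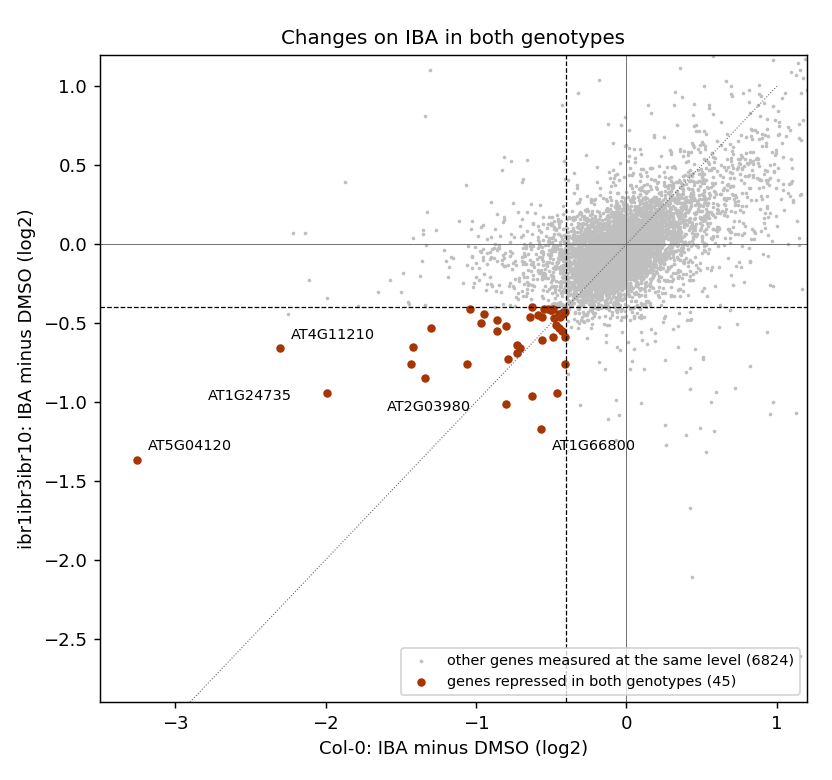
Change on IBA (log2, mean of 3 IBA arrays minus mean of 3 DMSO arrays) in Col-0 on the x axis and in ibr1ibr3ibr10 on the y axis, for the 45 genes (brown) and the other 6824 genes of sufficient level (grey, 112 of them outside the plotted range). Dashed lines mark -0.4 and the dotted line equal changes; 30 of the 45 genes lie on the side of the larger Col-0 change and 15 on the other.

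On either side of the limit the values run on without a break. The genes nearest inside were AT5G45200, AT4G30800 and AT4G16660, whose smaller change was -0.402, -0.406 and -0.406. The nearest outside were AT1G09800 at -0.398, AT1G22570 at -0.396 and AT1G02575 at -0.396, each in the mutant. With standard errors of 0.08 to 0.16 for these 6 genes, which genes fall inside the limit is set by less than the error of a change.

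Single arrays of the 2 media rarely overlapped. Every IBA array was below every DMSO array for 42 of the 45 genes in Col-0, for 44 in the mutant and for 41 in both genotypes, where 26.5%, 23.9% and 11.5% of all 6869 genes show this; the same arrays chose the genes. The exceptions were AT5G09570, AT3G48460 and AT2G37510 in Col-0 and AT3G21670 in the mutant. On DMSO the median level of the 45 genes in Col-0 was 6.69 against 6.33 over the 6869 genes, and their spread within groups was a median SD of 0.147 against 0.107.

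**Figure D2:**
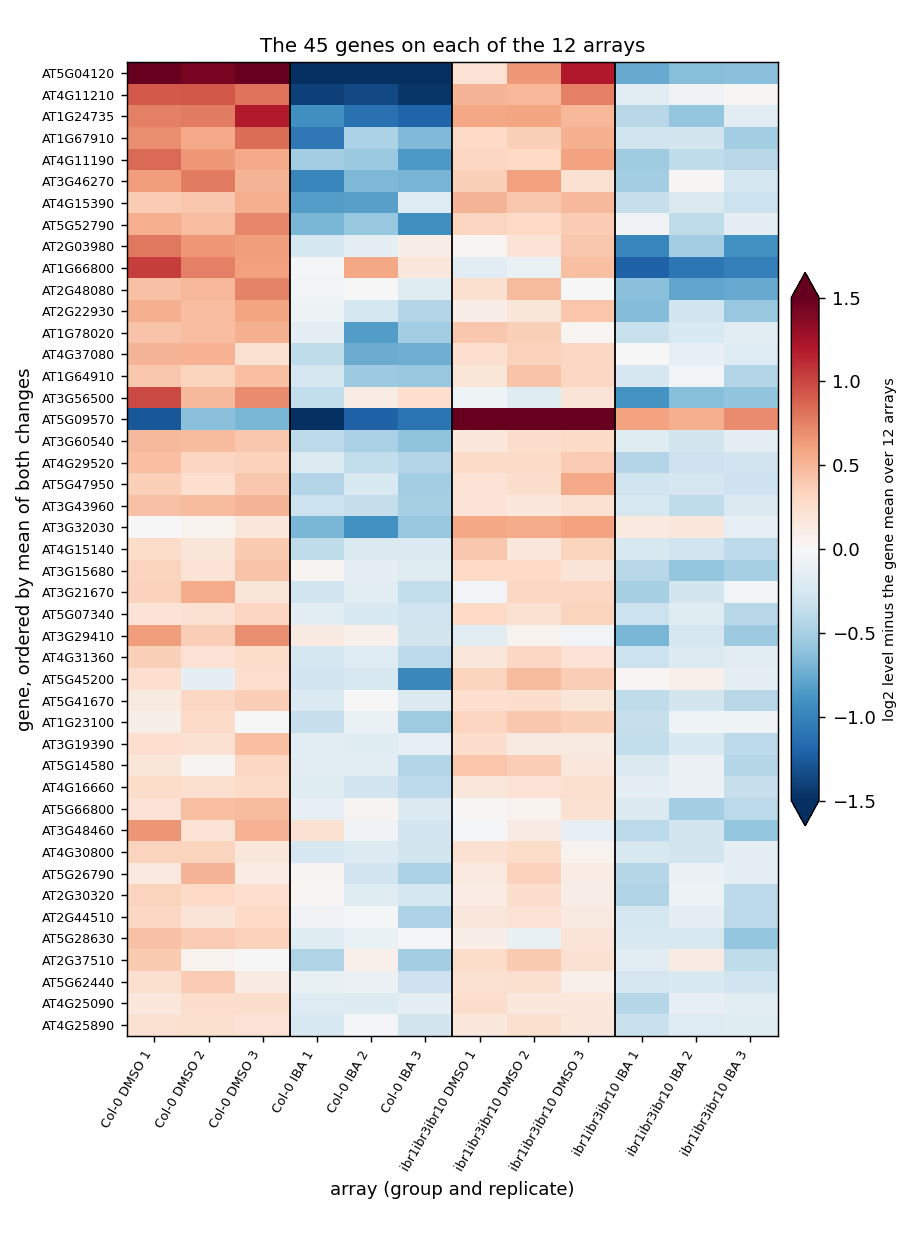
Level of each of the 45 genes on each of the 12 arrays, as the log2 level minus that gene's mean over the 12 arrays (red above, blue below, colours saturate at 1.5), with genes ordered from the most to the least negative mean of both changes. DMSO arrays are red and IBA arrays blue within each genotype for most genes, and AT5G09570 stands out as higher on all 6 mutant arrays.

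By the family they belong to, 13 of the 45 were grouped here under specialised metabolism. Most are in enzyme families that build, decorate or polymerise phenolics, terpenes, acyl compounds and lipids. A further 6 act in protein secretion, folding and breakdown, 5 in ribosomes and RNA handling, 5 in membranes and signalling, 2 in primary metabolism, 2 are zinc finger genes and 1 encodes a mitochondrial protein, while for 11 no role is given here. These families are background from general Arabidopsis annotation and not from the deposited data, which hold only locus codes for them. AT2G48080 was placed under specialised metabolism only by its broad oxygenase family, so its place there is uncertain. The median change in the 13 genes of specialised metabolism was -0.80 in Col-0 and -0.73 in the mutant, against -0.44 and -0.44 in the 5 ribosome and RNA genes.

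The largest changes belonged to AT5G04120, annotated in the phosphoglycerate mutase family of sugar phosphate enzymes and phosphatases. Its levels were 8.30, 7.97 and 8.21 on the 3 Col-0 DMSO arrays and 4.95, 4.94 and 4.85 on Col-0 IBA, and 6.76, 7.19 and 7.74 on mutant DMSO and 5.78, 5.90 and 5.91 on mutant IBA. The 4 groups do not overlap, and the mutant lies between the Col-0 groups on both media. The change was -3.25 (SE 0.18) in Col-0, a 9.48-fold lower level, and -1.37 (SE 0.18) in the mutant, a 2.58-fold lower level. The mutant was thus lower than Col-0 on DMSO (-0.92, SE 0.18) and higher on IBA (0.95, SE 0.18). The other gene of primary metabolism, AT5G41670, encodes a phosphogluconate dehydrogenase of the oxidative pentose phosphate pathway, which makes NADPH, and had changes of -0.41 (SE 0.09) and -0.59 (SE 0.09) from about 9.8 on DMSO in both genotypes.

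Among the genes of specialised metabolism AT4G11210 had the largest Col-0 change, and it is given here with a second dirigent gene, AT4G11190. Dirigent proteins guide the coupling of phenolic radicals, and family members act in lignan synthesis and in lignin deposition of the root endodermis. AT4G11210 measured 9.28, 9.29 and 9.17 on Col-0 DMSO, 6.95, 7.0 and 6.90 on Col-0 IBA, 8.86, 8.85 and 9.11 on mutant DMSO and 8.19, 8.30 and 8.37 on mutant IBA. All 6 mutant arrays lie above the Col-0 IBA arrays and below the Col-0 DMSO arrays, and the changes were -2.30 (SE 0.09) and -0.66 (SE 0.09). Its neighbour AT4G11190 had 9.26, 9.06 and 8.98 on Col-0 DMSO, 7.89, 7.85 and 7.55 on Col-0 IBA, 8.72, 8.71 and 9.02 on mutant DMSO and 7.88, 8.03 and 8.0 on mutant IBA. Here the IBA arrays of both genotypes overlap, and the changes were -1.34 (SE 0.11) and -0.85 (SE 0.11). Divided by the Col-0 change, the change in the mutant gave a ratio of 0.29 for AT4G11210, the lowest of the 45, and of 0.63 for AT4G11190.

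AT1G24735, a methyltransferase gene that uses S-adenosylmethionine, measured 6.10, 6.13 and 6.54 on Col-0 DMSO, 4.43, 4.22 and 4.14 on Col-0 IBA, 5.93, 5.94 and 5.84 on mutant DMSO and 4.93, 4.76 and 5.18 on mutant IBA. The mutant arrays again lie between the Col-0 groups, with changes of -1.99 (SE 0.13) in Col-0 and -0.94 (SE 0.13) in the mutant. AT4G15390, a BAHD acyltransferase gene of the family that esterifies alcohols and amines with acyl-CoA, was at 9.19, 9.21 and 9.36 on Col-0 DMSO, 7.98, 8.0 and 8.62 on Col-0 IBA, 9.32, 9.21 and 9.30 on mutant DMSO and 8.46, 8.59 and 8.49 on mutant IBA. It started from one level in both genotypes (0.02, SE 0.13, mutant minus Col-0 on DMSO) and had changes of -1.06 (SE 0.13) and -0.76 (SE 0.13), with Col-0 IBA replicate 3 above the mutant IBA arrays. The second BAHD gene, AT5G47950, had changes of -0.73 (SE 0.10) and -0.64 (SE 0.10).

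**Figure D3:**
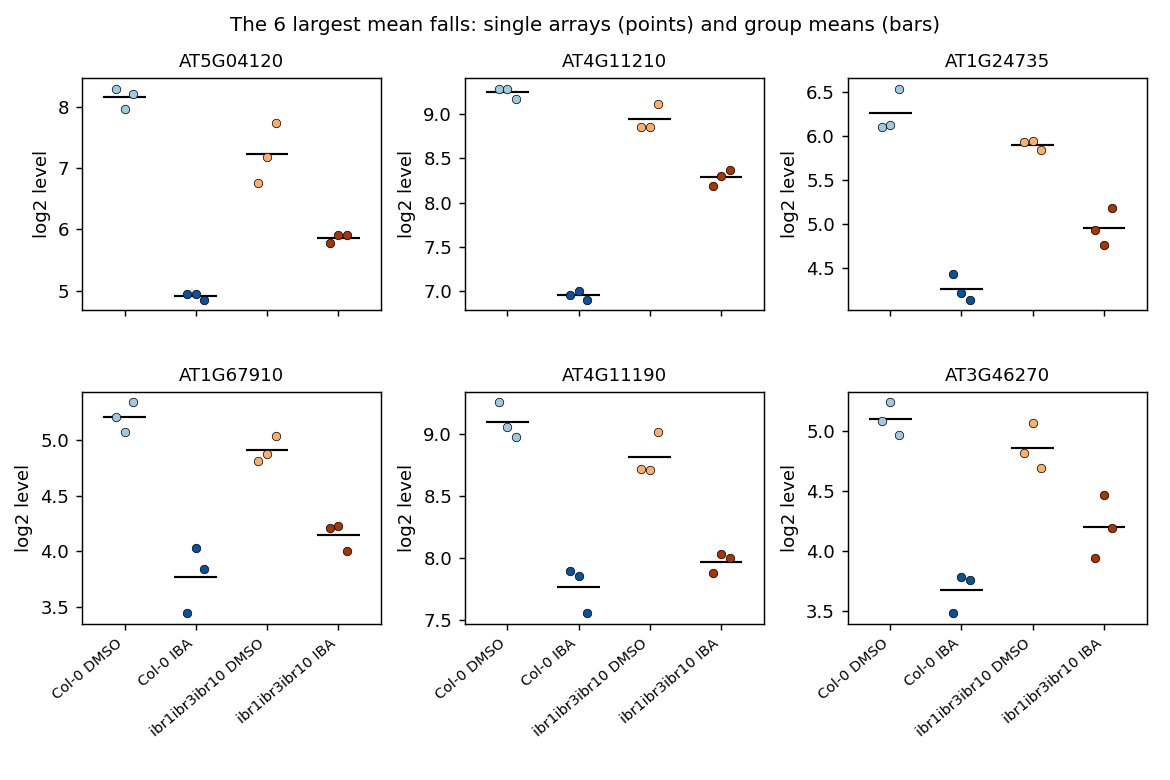
Log2 levels of the 6 genes with the most negative mean of both changes in each group, 3 arrays per group (points) with the group mean (bar); each panel has its own y axis, which does not start at 0. IBA arrays lie below DMSO arrays in both genotypes in each panel, and in AT5G04120 and AT4G11210 the mutant IBA arrays stay well above the Col-0 IBA arrays.

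A different pattern was seen in AT1G66800, a gene like cinnamyl alcohol dehydrogenases, which make lignin precursors. It gave 7.77, 7.49 and 7.34 on Col-0 DMSO, 6.70, 7.31 and 6.90 on Col-0 IBA, 6.56, 6.63 and 7.18 on mutant DMSO and 5.52, 5.64 and 5.70 on mutant IBA. The mutant was lower on both media, and its change of -1.17 (SE 0.17) was 2.07 times that of Col-0 (-0.57, SE 0.17), the highest ratio of the 45. The GDSL lipase gene AT2G03980, from a family of esterases that act on cutin, suberin and wall esters, had 5.61, 5.47 and 5.44 on Col-0 DMSO, 4.55, 4.67 and 4.91 on Col-0 IBA, 4.85, 5.02 and 5.22 on mutant DMSO and 3.84, 4.30 and 3.91 on mutant IBA. It too was lower in the mutant on both media, with changes of -0.80 (SE 0.13) and -1.01 (SE 0.13). The second GDSL gene, AT3G48460, had changes of -0.50 (SE 0.14) and -0.42 (SE 0.14).

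AT2G48080, of the oxygenase family that uses 2-oxoglutarate and iron, read 6.57, 6.63 and 6.87 on Col-0 DMSO, 6.09, 6.13 and 5.95 on Col-0 IBA, 6.37, 6.61 and 6.13 on mutant DMSO and 5.5, 5.35 and 5.37 on mutant IBA. Its mutant IBA arrays are the lowest of the 12, and the changes were -0.63 (SE 0.11) and -0.96 (SE 0.11). The UDP-glycosyltransferase gene AT2G22930, whose family attaches sugars to small molecules, showed 7.31, 7.24 and 7.37 on Col-0 DMSO, 6.70, 6.51 and 6.33 on Col-0 IBA, 6.87, 6.96 and 7.19 on mutant DMSO and 6.13, 6.48 and 6.21 on mutant IBA. Its changes were nearly equal in both genotypes (-0.79, SE 0.12, and -0.73, SE 0.12), and those of the second such gene, AT1G64910, were -0.86 (SE 0.11) and -0.55 (SE 0.11). The terpene synthase genes AT3G32030 and AT3G29410, whose products form the carbon skeletons of terpenes, had changes of -0.80 (SE 0.10) and -0.52 (SE 0.10) and of -0.59 (SE 0.13) and -0.45 (SE 0.13). The probe set of AT3G32030 is of the type that matches several transcripts of a family, so its level is uncertain.

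Among the genes of membranes and signalling, AT3G46270, related to receptor kinases, had 5.08, 5.24 and 4.97 on Col-0 DMSO, 3.48, 3.78 and 3.76 on Col-0 IBA, 4.82, 5.07 and 4.69 on mutant DMSO and 3.94, 4.47 and 4.19 on mutant IBA. The groups of each genotype do not overlap, and the changes were -1.42 (SE 0.14) and -0.65 (SE 0.14). AT5G52790, which encodes a membrane protein with a CBS domain, was at 5.55, 5.46 and 5.73 on Col-0 DMSO, 4.32, 4.43 and 4.08 on Col-0 IBA, 5.32, 5.30 and 5.38 on mutant DMSO and 4.95, 4.62 and 4.86 on mutant IBA, with changes of -1.30 (SE 0.11) and -0.53 (SE 0.11). Smaller changes were those of NPF6.4 (AT3G21670), a transporter gene of the nitrate and peptide family (-0.64, SE 0.13, and -0.46, SE 0.13), of AT4G25090, an NADPH oxidase gene of the family that makes extracellular superoxide (-0.42, SE 0.08, and -0.43, SE 0.08), and of the immune receptor gene AT5G45200 (-0.63, SE 0.16, and -0.40, SE 0.16).

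The 6 genes of protein secretion, folding and breakdown had changes of -0.95 to -0.45 in Col-0 and -0.59 to -0.41 in the mutant, and none overlapped between media in either genotype. In this group AT3G60540, which encodes the beta subunit of the SEC61 channel through which new proteins enter the endoplasmic reticulum, had the largest Col-0 change, at 6.95, 6.94 and 6.86 on Col-0 DMSO, 6.07, 5.97 and 5.86 on Col-0 IBA, 6.62, 6.72 and 6.75 on mutant DMSO and 6.28, 6.19 and 6.31 on mutant IBA. Its changes were -0.95 (SE 0.08) and -0.44 (SE 0.08). Calnexin (AT5G07340), which holds glycoproteins until they are folded, had changes of -0.49 (SE 0.08) and -0.59 (SE 0.08), and the Hsp70 chaperone gene AT4G16660 of -0.55 (SE 0.08) and -0.41 (SE 0.08). The papain-like cysteine protease genes AT3G43960 and AT3G19390 had changes of -0.86 (SE 0.07) and -0.48 (SE 0.07) and of -0.47 (SE 0.08) and -0.51 (SE 0.08), and the co-chaperonin gene AT1G23100 of -0.45 (SE 0.11) and -0.53 (SE 0.11).

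The 5 genes of ribosomes and RNA had the narrowest range, -0.52 to -0.41 in Col-0 and -0.55 to -0.41 in the mutant. They include 2 ribosomal protein genes, AT4G30800 (-0.52, SE 0.08, and -0.41, SE 0.08) and AT4G25890 (-0.41, SE 0.08, and -0.43, SE 0.08), and AT5G14580, a polyribonucleotide nucleotidyltransferase that trims organellar RNA (-0.43, SE 0.11, and -0.55, SE 0.11). The others were the pseudouridine synthase gene AT2G30320 (-0.44, SE 0.10, and -0.46, SE 0.10) and the RNA-binding protein gene AT2G37510 (-0.44, SE 0.16, and -0.44, SE 0.16), whose Col-0 IBA replicate 2 lies among its DMSO arrays. The zinc finger genes were AT1G78020, of the FLZ family (-0.97, SE 0.14, and -0.50, SE 0.14), and AT3G15680, of the RanBP2 type (-0.41, SE 0.09, and -0.76, SE 0.09), which with 1.85 had the third highest ratio.

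AT1G67910 led the 11 genes with no role given here, at 5.21, 5.07 and 5.34 on Col-0 DMSO, 3.44, 4.03 and 3.84 on Col-0 IBA, 4.81, 4.87 and 5.04 on mutant DMSO and 4.21, 4.23 and 4.00 on mutant IBA. Its changes were -1.43 (SE 0.13) and -0.76 (SE 0.13), and the IBA arrays of both genotypes overlap. AT4G37080 had changes of -1.04 (SE 0.11) and only -0.41 (SE 0.11), a ratio of 0.39. AT4G29520 was among the more precisely measured (-0.71, SE 0.08, and -0.66, SE 0.08). The other 8, AT3G56500, AT4G15140, AT4G31360, AT5G66800, AT5G26790, AT2G44510, AT5G28630 and AT5G62440, had changes of -0.73 to -0.42 in Col-0 and -0.69 to -0.41 in the mutant. AT5G62440 has a second probe set, which had changes of -0.36 and -0.43.

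The share of the Col-0 change seen in the mutant had a median of 0.85 and ran from 0.29 to 2.07. For 18 of the 45 genes it lay between 0.8 and 1.2, and for 7 it was under 0.5. The 9 genes with a Col-0 change of -1 or less had a median ratio of 0.46 and none above 0.72, against a median of 0.96 in the other 36. Part of that contrast is built into the rule, which keeps a gene with a Col-0 change near -0.4 only if its ratio is near 1 or above. Of those 9 genes, 8 had a lower mean in the mutant on DMSO and all 9 a higher mean in the mutant on IBA. Their ratios below 1 mean that mutant minus Col-0 rises from DMSO to IBA in each. Their Col-0 levels also picked the 9, so these counts are a description. Over all 45, the mutant change minus the Col-0 change had a median of 0.08, which became 0.55 when arrays were scaled to their spiked bacterial transcripts. With that scaling the median change of all probe sets was -0.42 in Col-0 and 0.07 in the mutant, where the deposited values give -0.04 and -0.01, so the size of the ratio depends on which transcripts are taken as constant. With spike scaling 26 of the 45 genes still met the rule.

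On DMSO, 35 of the 45 genes (77.8%) had a lower mean in the mutant than in Col-0, against 52.5% of the 6869 genes, and on IBA 20 (44.4%) against 52.0%. DMSO levels entered the choice of the genes, so these shares are a description. The genotype difference averaged over both media, which in this balanced design is independent of both changes on IBA, was tested. It is not independent of the minimum level, which AT3G56500 reached in Col-0 on DMSO alone, while the other 44 genes reached it in both genotypes. By limma, with p-values adjusted over 22746 probe sets, 12 of the 45 genes passed at an adjusted p under 0.05. They were 3 higher in the mutant (6.67% of the 45, against 5.69% of all probe sets) and 9 lower (20.0%, against 3.9%), or 8 of 44 (18.2%) without AT3G56500. All probe sets include dim ones, while the 45 genes had to reach the minimum level, so these shares are not of like sets. With the dimmest 30% of probe sets left out, 1455 of the rest were higher and 944 lower, against 1294 and 886 of all 22746. Of the 45 genes 4 were then higher and 10 lower. The share over the 6869 genes was not counted. The median genotype difference of the 45 genes was -0.02, and -0.01 over the 6869 genes, and the 33 genes that did not pass lay between -0.27 and 0.38.

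The largest genotype difference was that of AT5G09570, which encodes a small mitochondrial protein with twin cysteine motifs and is known to be induced when respiration is disturbed. Its levels were 4.28, 4.92 and 4.87 on Col-0 DMSO, 3.9, 4.34 and 4.45 on Col-0 IBA, 7.08, 7.09 and 7.16 on mutant DMSO and 6.16, 6.10 and 6.26 on mutant IBA. All 6 mutant arrays exceed all 6 Col-0 arrays, and the average difference was 2.18 (SE 0.11, limma adjusted p = 1.84e-08). In Col-0 the media overlap, with a change of -0.46 (SE 0.16), whereas the mutant had a change of -0.94 (SE 0.16) from its higher level, a ratio of 2.04.

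The other 2 genes higher in the mutant were AT3G32030, by 0.65 (SE 0.07, limma adjusted p = 2.92e-05), and AT4G11210, by 0.52 (SE 0.06, limma adjusted p = 6.8e-05). The terpene synthase gene AT3G32030 was higher on both media, by 0.51 on DMSO and 0.79 on IBA. In contrast AT4G11210 was lower on DMSO (-0.30, SE 0.09) and higher on IBA (1.34, SE 0.09), so its average joins opposite differences.

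Of the 9 genes lower in the mutant, AT1G66800 had the largest difference (-1.05, SE 0.12, limma adjusted p = 6.64e-05). It was followed by AT3G56500 (-0.72, SE 0.12), AT2G03980 (-0.58, SE 0.09), AT3G29410 (-0.54, SE 0.09), AT2G48080 (-0.49, SE 0.08) and AT3G48460 (-0.42, SE 0.10), with adjusted p-values of 9.3e-04, 8.53e-04, 0.00157, 0.0013 and 0.0131 (limma). Both GDSL lipase genes of the set are thus among those lower in the mutant. For AT3G56500 the levels were 4.79, 4.29 and 4.51 on Col-0 DMSO, 3.43, 3.91 and 4.06 on Col-0 IBA, 3.74, 3.62 and 4.00 on mutant DMSO and 2.91, 3.17 and 3.21 on mutant IBA, so that the mutant on DMSO overlapped with Col-0 on IBA. A gene this dim that was low in both mutant groups could enter the set only with a higher level in Col-0, so the difference of AT3G56500 is partly set by the choice. AT3G29410 had 4.85, 4.59 and 4.92, then 4.35, 4.29 and 3.94, then 4.06, 4.27 and 4.18, then 3.53, 3.97 and 3.67 in the same order of groups. Its lowest group is the mutant on IBA, and the mutant on DMSO overlaps with Col-0 on IBA.

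The last 3 were AT5G28630 (-0.29, SE 0.07), AT5G66800 (-0.28, SE 0.07) and AT3G15680 (-0.23, SE 0.06), with limma adjusted p-values of 0.0201, 0.0261 and 0.0234. These calls are the least firm. That of AT5G28630 ended without mutant DMSO replicate 2 (limma adjusted p = 0.0554), that of AT3G15680 on leaving out any 1 of 4 arrays (0.0569 to 0.0637) and that of AT5G66800 any 1 of 7 arrays (0.0580 to 0.0716). The calls of these 3 genes and of AT3G48460 also ended with the spike scaling (0.116 to 0.576).

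**Figure D4:**
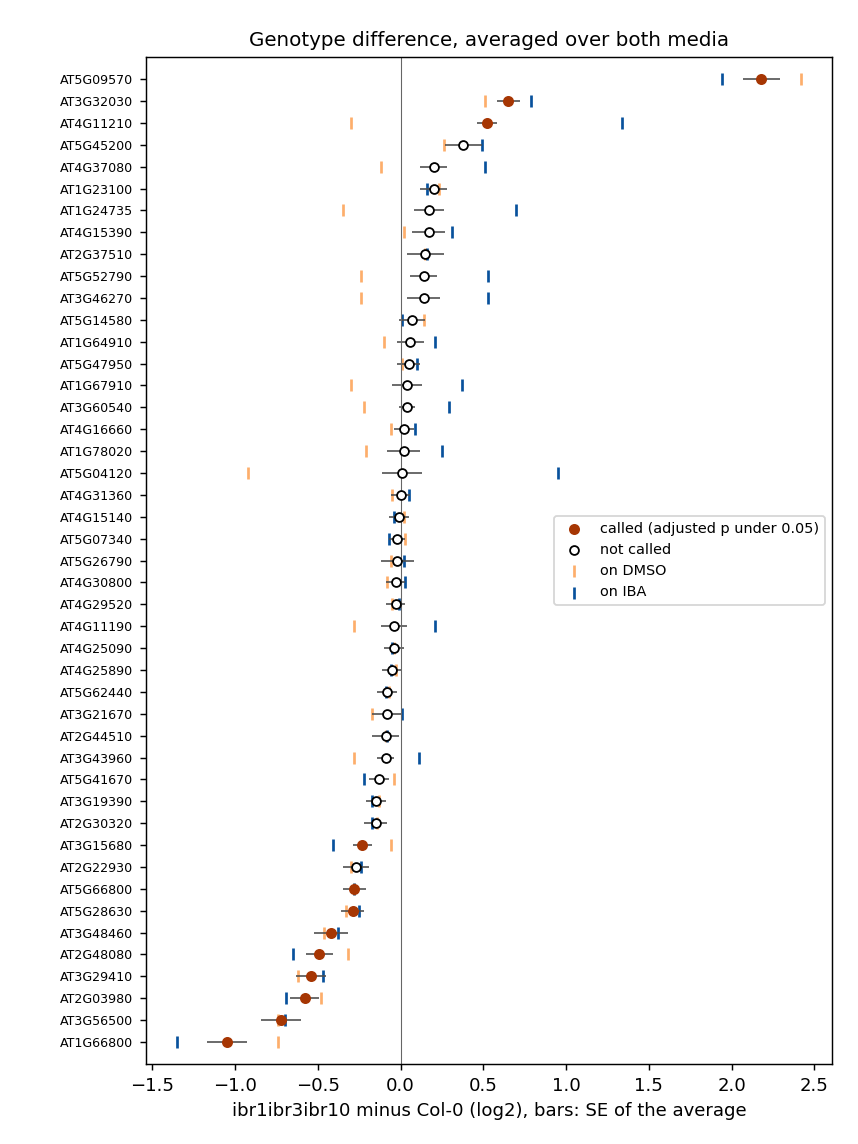
Mutant minus Col-0 (log2) averaged over both media for the 45 genes, with its SE (bars), filled where limma's adjusted p was under 0.05 (12 genes) and open otherwise, and the difference on DMSO (orange ticks) and on IBA (blue ticks). AT5G09570 lies apart at 2.18, and the ticks of AT5G04120 and AT4G11210 lie on opposite sides of 0.

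To see the same measure in arrays that the rule did not read, the rule was applied to 2 same-numbered replicates per group and the change read in the remaining replicate. RMA had equalised the arrays before, so the arrays left for reading were not wholly apart, and the replicate numbers do not pair samples. With replicate 1 left for reading, 54 of 56 genes (96.4%) were lower on IBA in both genotypes, against 33.4% of all genes of sufficient level. With replicate 2 it was 56 of 62 (90.3%, against 36.7%) and with replicate 3 46 of 48 (95.8%, against 46.5%). The median change read was -0.48, -0.41 and -0.79 in Col-0 and -0.48, -0.43 and -0.45 in the mutant. The full limit of -0.4 in both genotypes was met again by 39.3%, 35.5% and 52.1% of the genes, against 0.842%, 0.929% and 1.82% of all. These sets overlap with the 45 genes but are not the same, since 38 of the 56, 39 of the 62 and 32 of the 48 are among the 45. Most of the genes chosen on 2 replicates were thus lower again in the replicate left for reading, and a smaller share met the limit itself. Each reading rests on 1 array per group, whose effects all genes share. The genes are therefore not independent readings, and these counts are a description with no test.

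**Figure D5:**
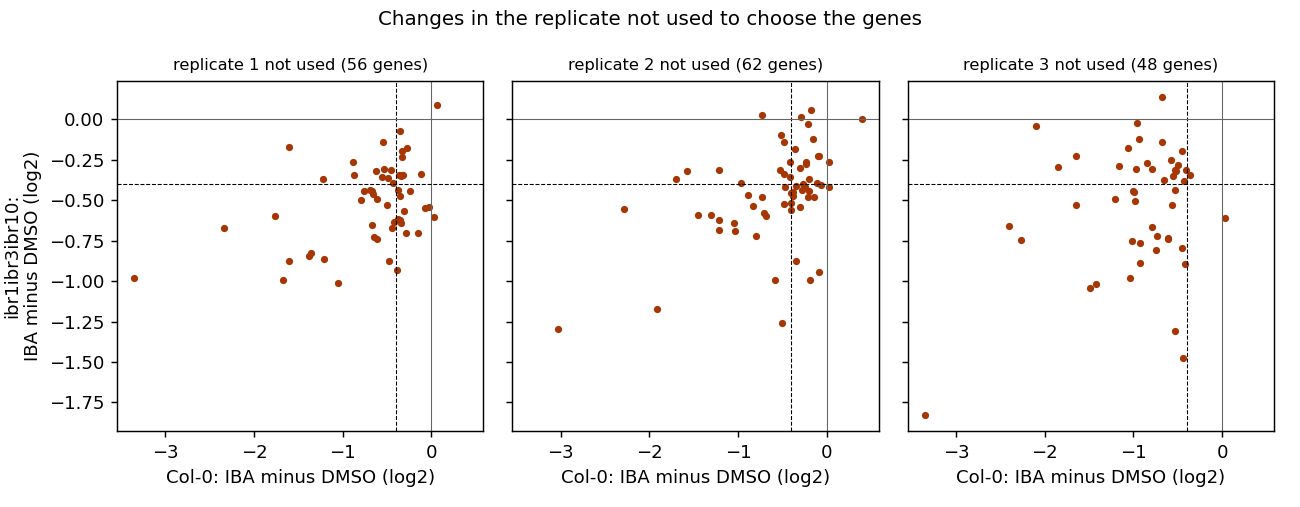
Change on IBA (log2) in Col-0 (x axis) and ibr1ibr3ibr10 (y axis) read in 1 replicate, for genes chosen by the other 2 replicates, with replicate 1, 2 or 3 left for reading (56, 62 and 48 genes). Dashed lines mark -0.4; 54, 56 and 46 genes lie below 0 on both axes.

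The 45 genes lie on all 5 chromosomes, with 6, 6, 10, 11 and 12 genes on chromosomes 1 to 5. Chromosome 1 holds 13.3% of them and 26.3% of the 6869 genes, and chromosome 4 holds 24.4% and 14.2% (gene order of TAIR10.1, RefSeq). Only AT4G11190 and AT4G11210 are directly adjacent. Within 3 positions on either side, 133 neighbouring genes were measured that are not among the 45. Of these 18 were lower on IBA in Col-0 (13.5%, against 11.4% of all probe sets; limma, adjusted p under 0.05) and 9 in the mutant (6.77%, against 3.87%). Both counts include AT5G66815, which met the limit of the set and was only set aside. In turn 17 of the 133 were higher in Col-0 (12.8%, against 12.1%) and 6 in the mutant (4.51%, against 5.49%). With spike scaling the counts of lower neighbours were 85 in Col-0 and 0 in the mutant, where 14604 and 168 of the 22746 probe sets were lower. On leaving out 1 array the count in the mutant was 2 to 12.

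The neighbours lower in both genotypes were 5, AT3G19360, LpxA, AT5G14600, AT5G41650 and AT5G66815, which are named after their values were seen. AT5G66815, 2 positions from AT5G66800, had changes of -2.25 (SE 0.10) and -0.44 (SE 0.10), while AT5G66800 had changes of -0.48 and -0.47. Some neighbours moved otherwise: AT3G46280, beside AT3G46270, had changes of -0.77 (SE 0.13) in Col-0 and 0.52 (SE 0.13) in the mutant, with limma adjusted p-values of 4.96e-04 and 0.0189, the second of which was 0.0519 to 0.085 without any 1 of 4 mutant arrays.

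Within groups, where the rule does not reach, the 45 genes varied together little. Over the 990 pairs the correlation of deviations from group means across the 12 arrays had a median of 0.10 and quartiles of -0.19 and 0.36, and over all pairs of the 6869 genes 0.03, -0.25 and 0.31. Genes on the same arrays share array effects, and the 4 group means leave 8 degrees of freedom.

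For some families and pathways with genes among the 45, the other measured genes were counted by limma at an adjusted p under 0.05. Families of several leading genes, such as AT5G04120 and AT1G24735, were not counted. Of 9 measured genes of import into and folding in the endoplasmic reticulum, from 28 listed, 3 are among the 45, and of the other 6 genes 4 fell in Col-0 and 1 in the mutant, where 11.4% and 3.87% of all probe sets did so. These were the SEC61 channel genes AT1G29310 (-0.56, SE 0.08) and AT1G78720 (-0.44, SE 0.11), the co-chaperone gene ATERDJ3B, AT3G62600 (-0.47, SE 0.07) and the calreticulin gene CRT1b (-0.34, SE 0.07). The Col-0 counts were 4 to 6 of 6 over the other scalings and 4 on leaving out any 1 array. The count of 6 came with spike scaling, where 14604 of the 22746 probe sets were lower in Col-0. In the mutant the change of ATERDJ3B passed (-0.37, SE 0.07, limma adjusted p = 0.0031) but did not with spike scaling (limma adjusted p = 0.508), and AT1G78720 had a low mean level of 3.46. The median of these 6 genes was -0.39 in Col-0 and -0.20 in the mutant, beside -0.05 and -0.04 for all 6869 genes.

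Counts in the other lists were mixed or low. Of 13 measured dirigent genes outside the set, 2 fell and 3 rose in Col-0, where 11.4% and 12.1% of all probe sets did so, and 1 fell and 1 rose in the mutant, beside 3.87% and 5.49%. AT3G13650 rose by 0.69 (SE 0.08) in Col-0 and fell by 0.42 (SE 0.08) in the mutant (limma), though neither change passed with spike scaling. Spike scaling gave 5 dirigent genes lower and 2 higher in Col-0, where 14604 and 837 of the 22746 probe sets were so. The dirigent gene that rose in the mutant, AT1G58170 (0.40, limma adjusted p = 0.0383), did not pass with spike scaling (adjusted p = 0.107). It also did not pass without mutant DMSO replicate 2 or 3 (adjusted p = 0.159 and 0.158) or without mutant IBA replicate 2 or 3 (adjusted p = 0.0797 and 0.146), and 2 genes rose without Col-0 IBA replicate 1. Of 15 further terpene synthase genes, 1 fell in Col-0 by limma and 0 in the mutant. There 1 was lower and 2 were higher at an unadjusted p under 0.05. With spike scaling 12 of the 15 were lower in Col-0, as were 14604 of the 22746 probe sets. The single Col-0 call, AT4G20230 (-0.43, SE 0.15, limma adjusted p = 0.0483), was lost on leaving out any 1 of 8 arrays, and median centring gave 2 calls in Col-0 and 1 in the mutant. Of 2 further NADPH oxidase genes, 1 rose in Col-0, where 12.1% of all probe sets did so, and 0 passed in the mutant. AT1G19230 rose by 0.76 (SE 0.10) in Col-0, with a mutant change of -0.01 (SE 0.10). The other, AT4G11230, had changes of -0.11 (SE 0.18) and -0.02 (SE 0.18). Of 2 further genes of the oxidative pentose phosphate pathway, 1 rose in Col-0 and 0 passed in the mutant. AT3G02360, a second gene for phosphogluconate dehydrogenase, had changes of 0.21 (SE 0.07) and 0.09 (SE 0.07), the first of which turns to -0.17 with spike scaling. Its Col-0 call was lost on leaving out any 1 of 8 arrays. The other, AT1G64190, had changes of -0.01 (SE 0.08) and -0.14 (SE 0.08). The lists cover only genes with a probe set that names 1 gene, so they do not describe whole families.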

How the data were processed

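Per the labels' protocols, total RNA spiked with bacterial transcripts was amplified, labelled with biotin and hybridised to ATH1 arrays in 1 colour. Per the submitters' processing notes, the deposited log2 levels were made by RMA in affy 1.40.0. RMA equalises the arrays' intensity distributions and so hides a common shift of most transcripts. Titles of DMSO samples give 0 h and shorten the mutant's name; the treatment and genotype labels were used. If the 0 h of the titles were right, IBA and time on the medium could not be told apart in these changes.

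Of 22810 probe sets, 64 controls were left out, and 13513 of the others carry a single gene symbol in the platform annotation, taken here as naming 1 gene. Per gene the probe set with the highest mean was kept (11798 genes listed there by a locus code alone). AT5G66815 and AT1G65570 were set aside; the latter, at -0.12 in the mutant, did not meet the limit.

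Group means over 12 arrays were fitted with limma 3.58.1 in R 4.3.3 (lmFit, eBayes, 8 residual and 5.62 prior degrees of freedom), two-sided, with Benjamini-Hochberg adjustment over 22746 probe sets. Only the test of the genotype difference averaged over media was tried on simulated data. The members, lists and families were chosen with earlier results of these data known. Named were the 12 genes with the most negative mean of both changes, the members that passed the genotype test, the 3 highest and 3 lowest ratios, and 3 genes on either side of the limit; the planned sorting by annotation words matched 0 of 45 genes, so role groups from general knowledge took its place and the other members were named too. Replicate numbers do not pair the samples. Alternatives were other scalings, limma settings, thresholds and leaving out each array. No sequences are shown, and promoter motifs were not analysed here.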

Additional observations from a re-analysis of the deposited data

How the results depend on the processing

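The set of 45 genes became 152 with a limit of 0.3, 19 with 0.5, 1 with 1 and 28 with a minimum level of 6, and 36 to 61 on leaving out 1 array. Scaling to spiked bacterial transcripts gave 49 genes, of which 26 are among the 45 (52 and 26 without the Trp spike, a choice made after its probe sets were seen at 1.82 to 2.48, near the bottom of the scale). Probe sets called in Col-0 (5345) became 15441 with spike scaling, 17010 without Trp and 3354 at an adjusted p under 0.01, and 4195 to 5255 on leaving out 1 array. Those in the mutant (2129) became 962, 947 and 999, and 1168 to 2458, with 1168 without mutant DMSO replicate 2, 1398 without mutant DMSO replicate 3 and 1298 without mutant IBA replicate 3. For the genotype difference averaged over media (2180) the stricter threshold gave 1269, and leaving out 1 array 1754 to 2551. Of the Col-0 calls 51.6% were higher, against 34.7% with median centring, 5.42% with spike scaling and 4.25% without Trp. In the mutant 58.6% became 82.5% and 84.3%, or 68.8% at the stricter threshold, and for the genotype difference 59.4% became 81.0% and 82.1%. Among the 45 genes, those higher in the mutant (3) became 5 with spike scaling and 3 to 5 on leaving out 1 array (5 without Col-0 IBA replicate 1). Those lower (9) became 5 with spike scaling, 4 without Trp, where the call of AT2G48080 also ended (adjusted p = 0.0598), and 5 at the stricter threshold, and 7 to 10 on leaving out 1 array. The median difference of changes (0.08) became 0.55 and 0.62, and 0.01 to 0.12 on leaving out 1 array. With the spikes the median error of the genotype difference rose from 0.068 to 0.11; the causes of these shifts were not tested. A replicate block gave 5283, 2119 and 2111 calls and again 3 and 9 of the 45, and same-numbered arrays deviated from their group means with correlations of -0.21 to 0.17. The call of no other gene among the 12 was changed by a scaling or by leaving out an array. The 3 arrays per group limit the precision, and dim levels near the bottom of the scale carry little signal over background.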
